A study of Mus musculus with 43 samples.

Results

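The genes described here make, control and export cholesterol and fatty acids. They were taken by symbol from the authors' deposited gene table: 38 members, each with 1 row, of 22462 genes. The table compares 3 RNA-seq libraries of control E14 cells with 3 of cells labelled MTF2 KO, and gives 1 pooled FPKM value (fragments scaled by transcript length and by depth) per gene and group. E14 is an embryonic stem cell line from a male mouse embryo, and both groups were cultured in serum and LIF on gelatin. Both groups share the E14 background and these culture conditions, and the knockout cells differ, per the labels, by a knockout of MTF2, a Polycomb-like subunit of the histone H3 methyltransferase complex PRC2. How the knockout was made, and whether it is a single clone, is not given in the labels used here.

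Cells build cholesterol from acetyl-CoA through mevalonate, farnesyl diphosphate, squalene and lanosterol, and build fatty acids from the same acetyl-CoA. The transcription factors SREBP1 and SREBP2 switch on most genes of both routes; SCAP carries them out of the endoplasmic reticulum when sterols are scarce, and INSIG proteins hold them there when sterols are plentiful. LXR nuclear receptors sense oxidised sterols and switch on genes that export cholesterol. In embryonic stem cells both routes supply membranes and lipid anchors for rapid division.

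No SD or n can be given beside a value, since the table holds no values per library, and the depth per library is unknown. Whether a difference exceeds the spread between libraries therefore rests on the authors' Cuffdiff q (a p-value adjusted over 11362 tested genes), and a gene is called at a q of 0.05 or less. Every FPKM below is the authors' pooled value. The log2 ratio compares knockout with control FPKM after adding 0.5 to both, so changes of low genes come out smaller than they were. As a check of the labels, Mtf2 had 74.3 FPKM in control cells and 44.7 FPKM in the knockout, 60.2% of control, with q = 0.0496 in the authors' deposited table. The transcript was thus lower but present by these values, though Mtf2 lies under a locus entry of 2 genes, so its estimate is uncertain. These values alone do not show a loss of the gene's function. The ES cell markers were present in both groups, 10 genes summing to 5266 FPKM in the control and 5171 FPKM in the knockout, with 0 listed at 0. The 14 primitive and visceral endoderm markers summed to 215 and 1460 FPKM. Of the 12 tested, 9 were called higher. Hnf4a went the other way, from 2.25 to 1.08 FPKM (log2 ratio -0.80), and was not called. Ttr and Afp, both untested, were listed at 0 in control cells and reached only 1.29 and 0.0945 FPKM. The higher sum was therefore not shared by every marker. Of the tested genes, 4 lay under 1 FPKM in control cells and 0 did in knockout cells. Some may thus have passed the filter on low values only through their knockout level, so the count is a description. The 5 trophectoderm markers summed to 17.1 and 171 FPKM through Krt8 and Krt18. The 6 fibroblast markers summed to 5.87 and 13.1 FPKM, mostly through Thy1, at 5.14 and 11.4 FPKM and not called. Col1a1, Col1a2 and Fbn1 lay under 1 FPKM in both groups and were not tested, and Col3a1 and Postn were listed at 0 in both. The neural markers summed to 154 and 120 FPKM, mostly through Tubb3, at 145 and 110 FPKM. Tubb3 is 1 of 74 genes under a single locus entry, so its estimate is uncertain. Of the other neural markers, Sox1 stood at 2.66 and 5.31 FPKM, Pax6 at 1.46 and 1.18 FPKM and Nes at 5.02 and 3.38 FPKM. The mesoderm markers summed to 9.98 and 6.11 FPKM. The part of these marker differences in the results below was not tested, and in bulk RNA a change in the number of cells of a type cannot be told apart from a change in RNA per cell.

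In the knockout, 4 genes of lipid synthesis and its control were called lower and a pair of cholesterol storage and export genes higher. Srebf2, which encodes SREBP2, fell from 82.7 to 43.3 FPKM, Fasn, the fatty acid synthase, from 96.1 to 45.6 FPKM, Fads2, a fatty acid desaturase, from 27.3 to 12.3 FPKM, and Msmo1, the methylsterol monooxygenase, from 14.4 to 4.72 FPKM. Soat1, which esterifies cholesterol for storage, rose from 2.54 to 8.82 FPKM, and Abca1, which exports cholesterol, from 1.79 to 4.10 FPKM. Of the 38 members, 36 were tested. Calls comprised 4 lower and 2 higher genes, and 30 tested members had none. Lower calls made up 6.03% and higher calls 6.9% of all tested genes, 12.9% in all, and the members' shares, 11.1% lower and 5.56% higher, rest on few genes and lie near it. With a normal p computed from the deposited test statistic, 0 members were called, against 4 lower and 2 higher at an unadjusted normal p under 0.05. That p called 29 genes lower and 95 higher in the whole table.

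The median log2 ratio of the 36 tested members was -0.38, with an interquartile range of -0.53 to 0.12, beside -0.0035 (-0.40 to 0.47) over all tested genes. Of the members, 25 had a ratio below 0 and 11 above, 69.4% below against 50.2% of all tested genes. By role, the medians were -0.48 for the 6 tested mevalonate steps, -0.05 for the 11 sterol steps, -0.44 for the 5 SREBP control genes, -0.44 for the 8 fatty acid genes and 0.90 for the 6 tested genes of uptake, efflux and storage. Summed FPKM over all genes was 559237 in control and 504845 in knockout cells. Dividing each group by its sum raises every ratio, with the median of all tested genes moving to 0.14. The members' median then stood at -0.24 and that of the sterol steps at 0.09, while the other roles kept the sign of their medians. At an unadjusted Cuffdiff p under 0.05 in the authors' deposited table there were 7 lower and 6 higher members. Together these were 36.1% of the tested members, a share that rests on few genes. Over all tested genes the share was 25.7%, with 13.0% lower and 12.7% higher.

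**Figure D1:**
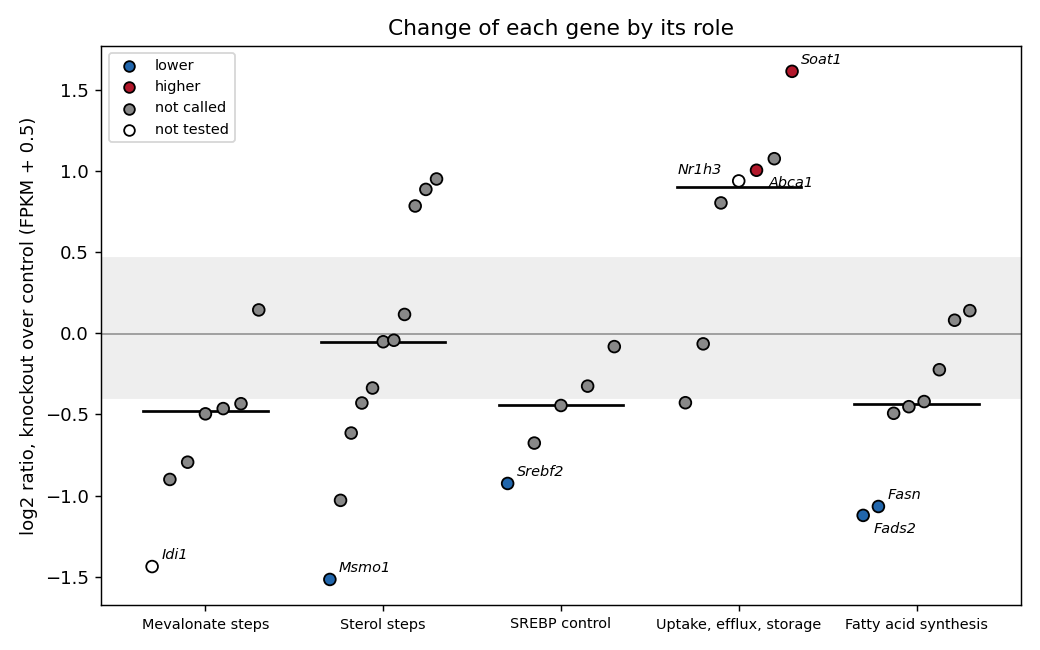
Log2 ratio of knockout over control (FPKM + 0.5) for each of the 38 members, grouped by role; each point is 1 gene, coloured by the authors' call, and black bars are medians of the tested genes. The grey band and line give the interquartile range, -0.40 to 0.47, and the median of all tested genes. All 5 SREBP control genes lie below 0, and the genes of uptake, efflux and storage reach 1.61 with Soat1.

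The promoters of the 6 called genes are shown, together with that of Hmgcs1, the member whose window held the strict sterol response element searched. They are the 250 bases before the start of the gene in RefSeq on GRCm38.p6, read 5′ to 3′ on the gene's strand: Srebf2 at chr15:82147019-82147268 (plus strand), Msmo1 at chr8:64733579-64733828 (minus strand), Fasn at chr11:120824548-120824797 (minus strand), Fads2 at chr19:10101504-10101753 (minus strand), Abca1 at chr4:53159896-53160145 (minus strand), Soat1 at chr1:156474329-156474578 (minus strand) and Hmgcs1 at chr13:119690101-119690350 (plus strand). Capitals mark matches on either strand to the CCAAT box, the Sp1-like motif GGGCGG, the E-box CACGTG, the motif TATAAA, the sterol response element TCACNCCAC and its shorter core TCACCCC, which overlap in Hmgcs1.
Srebf2: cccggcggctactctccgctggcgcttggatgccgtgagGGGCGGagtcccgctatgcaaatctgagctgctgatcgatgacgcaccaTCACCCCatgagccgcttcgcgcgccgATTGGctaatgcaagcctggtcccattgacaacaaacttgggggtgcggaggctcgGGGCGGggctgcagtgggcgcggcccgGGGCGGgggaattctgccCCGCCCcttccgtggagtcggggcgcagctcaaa
Msmo1: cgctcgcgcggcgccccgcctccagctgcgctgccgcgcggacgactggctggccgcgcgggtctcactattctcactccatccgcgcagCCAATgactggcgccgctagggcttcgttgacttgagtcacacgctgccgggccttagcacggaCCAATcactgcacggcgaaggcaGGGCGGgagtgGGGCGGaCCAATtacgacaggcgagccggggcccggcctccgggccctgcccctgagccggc
Fasn: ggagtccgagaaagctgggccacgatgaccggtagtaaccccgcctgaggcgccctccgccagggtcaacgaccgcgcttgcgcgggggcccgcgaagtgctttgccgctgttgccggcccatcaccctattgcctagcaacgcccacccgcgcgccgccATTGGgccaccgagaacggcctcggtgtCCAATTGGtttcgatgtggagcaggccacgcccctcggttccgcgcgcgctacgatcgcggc
Fads2: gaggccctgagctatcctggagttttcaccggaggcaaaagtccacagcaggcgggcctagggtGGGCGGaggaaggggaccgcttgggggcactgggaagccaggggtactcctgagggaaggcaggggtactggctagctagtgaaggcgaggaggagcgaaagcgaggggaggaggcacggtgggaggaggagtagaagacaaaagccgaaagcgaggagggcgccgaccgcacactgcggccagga
Abca1: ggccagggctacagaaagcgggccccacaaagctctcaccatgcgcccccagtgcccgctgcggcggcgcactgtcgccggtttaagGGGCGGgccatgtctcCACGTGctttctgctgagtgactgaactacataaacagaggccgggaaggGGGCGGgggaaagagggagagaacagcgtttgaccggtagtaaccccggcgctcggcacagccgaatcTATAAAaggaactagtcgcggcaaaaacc
Soat1: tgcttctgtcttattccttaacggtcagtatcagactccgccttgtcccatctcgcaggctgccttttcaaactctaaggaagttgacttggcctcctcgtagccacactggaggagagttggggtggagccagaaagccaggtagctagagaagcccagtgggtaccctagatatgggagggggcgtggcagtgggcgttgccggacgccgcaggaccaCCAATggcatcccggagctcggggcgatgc
Hmgcs1: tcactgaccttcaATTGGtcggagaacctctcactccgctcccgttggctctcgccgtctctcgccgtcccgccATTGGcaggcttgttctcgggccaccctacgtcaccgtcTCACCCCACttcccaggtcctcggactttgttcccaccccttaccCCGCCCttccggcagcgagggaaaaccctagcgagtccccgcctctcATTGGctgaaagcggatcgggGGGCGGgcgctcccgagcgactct

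In the Srebf2 window the core TCACCCC lies at positions -162 to -156 from the start, followed at -135 to -131 by ATTGG, which is CCAAT on the other strand. The Msmo1 window held 3 CCAAT and 2 GGGCGG matches between positions -160 and -51, and Fasn held 3 CCAAT matches on either strand, of which 1 pair overlaps in the run CCAATTGG. Abca1 alone of these 7 windows held TATAAA, at -29 to -24. Fads2 held 1 GGGCGG, and Soat1 1 CCAAT at -30 to -26.

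Windows of 300 bases, 250 before and 50 after the start, were at hand for 30 members; those of Fdps, Fdft1, Sqle, Stard4, Abcg1, Scd1, Scd2 and Fads1 were not used here. CCAAT was in 22 of the 30 (73.3%) and in 43.4% of the 8737 tested genes with a window. GGGCGG was in 24 (80%, against 71.4%), CACGTG in 6 (20%, against 12.3%) and TATAAA in 3 (10%, against 8.11%). TCACNCCAC was in 1 (3.33%, against 1.42%), and the core TCACCCC, chosen after the windows had been seen, in 4, Hmgcs1, Srebf2, Insig2 and Nr1h3 (13.3%, against 6.18%). The matches describe letters in these windows and show no binding. MTF2 is known to bind unmethylated CpG-rich DNA. The ratio of observed to expected CpG was 0.767 at the median over the 30 members, averaged over windows of a gene, and also 0.767 over tested genes. It was 1.09 for Fasn, 0.935 for Msmo1, 0.888 for Abca1, 0.864 for Srebf2, 0.763 for Fads2 and 0.682 for Soat1, so lower and higher genes overlap in this measure.

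Among the mevalonate steps, which turn acetyl-CoA into farnesyl diphosphate, 0 of 6 tested genes were called, 5 ratios lay below 0, and 1 had an unadjusted Cuffdiff p under 0.05. Over all tested genes, 12.9% were called and 25.7% had such a p. Mvk, which phosphorylates mevalonate, came nearest to a call, at 31.2 and 17.8 FPKM (log2 ratio -0.79, q = 0.0619 in the authors' deposited table). Here and below, the control value comes first. The next kinase Pmvk stood at 82.2 and 58.1 FPKM. Acat2, which joins acetyl-CoA units, stood at 10.9 and 7.79 FPKM; its close paralogue Acat3, named after its values were seen, was listed at 0 in both groups, so the split of reads between them is uncertain. Fdps, the farnesyl diphosphate synthase, stood at 15.7 and 11.5 FPKM. Hmgcs1, the HMG-CoA synthase, was the member of this role with a ratio above 0, at 27.7 and 30.6 FPKM. These values describe a run of moderate ratios that single-gene tests did not call.

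Mvd, the decarboxylase, had the highest control level of the role, 109 FPKM, and 58.1 FPKM in knockout cells. Its ratio of -0.90 was close to that of Srebf2, yet its q was 0.732 in the authors' deposited table, with a test statistic of -0.11 where Srebf2 had -2.52. Mvd is 1 of 74 genes under the same locus entry, an entry spanning 119910360 to 124345722 on chromosome 8, so its estimate is uncertain. Fdps, Fdft1, Cyp51, Tm7sf2 and Srebf1 also lie under entries of 2 to 5 genes. Idi1, the isomerase after it, was not tested by the authors and was listed at 1.25 and 0.148 FPKM.

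The sterol steps, from farnesyl diphosphate through squalene to cholesterol, split in both directions: 7 ratios lay below and 4 above 0, with 1 of 11 called. That share, 9.09% beside 6.03% lower over all tested genes, rests on 1 gene. Msmo1 (chromosome 8, 64718139 to 64733792, mm10) stood at 32.7% of control (log2 ratio -1.52, q = 0.0066 in the authors' deposited table), and 2.26% of all tested genes had a lower ratio. It removes methyl groups from the sterol ring together with Nsdhl and Hsd17b7. Hsd17b7 had the next lowest ratio of the role, at 4.85 and 2.12 FPKM (q = 0.298 in the authors' deposited table), but Nsdhl stood at 4.59 and 9.34 FPKM (q = 0.0852 in the authors' deposited table). The enzymes of this one demethylation stage thus had ratios from -1.52 to 0.95, and Msmo1 was the called one. For each of them the median ratio of neighbouring genes lay in the same direction, as given below.

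Ebp, the sterol isomerase, stood at 11.8 and 20.8 FPKM (log2 ratio 0.78, q = 0.0727 in the authors' deposited table). Fdft1, the squalene synthase, stood at 8.41 and 16.0 FPKM (q = 0.265 in the authors' deposited table). Sqle, the squalene epoxidase and a rate-controlling step, stood at 20.5 and 13.2 FPKM (log2 ratio -0.61, q = 0.128 in the authors' deposited table). So the enzymes on either side of squalene lay on opposite sides of control, without a call for either.

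Lss, which closes the ring to lanosterol, stood at 16.4 and 15.8 FPKM, Cyp51, the lanosterol demethylase, at 6.58 and 7.17 FPKM, and Tm7sf2, a sterol reductase, at 10.9 and 10.6 FPKM. Their ratios lay between -0.05 and 0.12, and those of Lss and Tm7sf2 change sign when each group is divided by its summed FPKM. The late enzymes Sc5d, a sterol desaturase, at 4.31 and 3.07 FPKM, and Dhcr7, a sterol reductase, at 14.5 and 11.4 FPKM, had ratios of -0.43 and -0.34 and were not called.

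**Figure D2:**
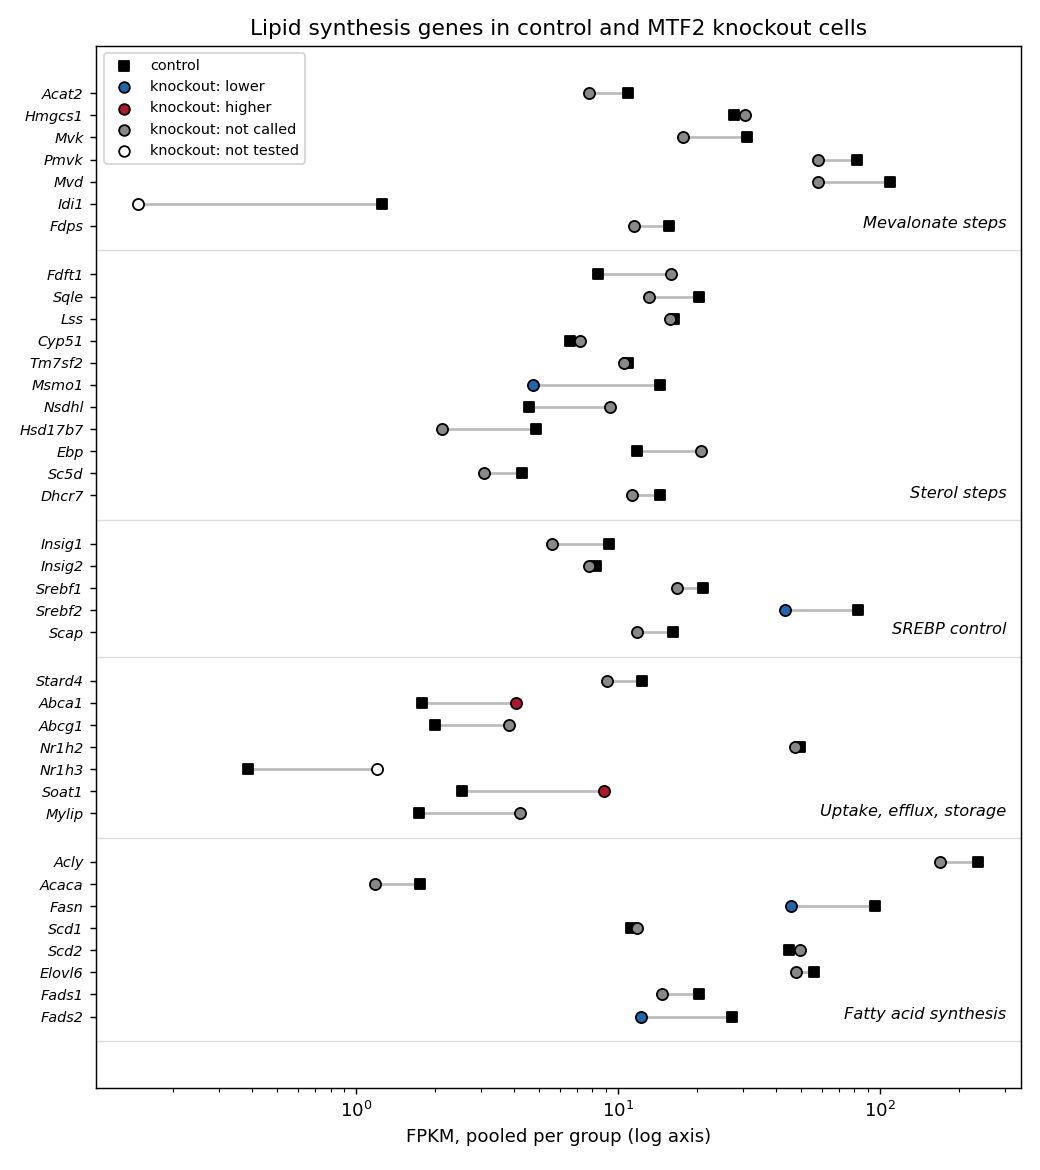
FPKM of the 38 members in control (black squares) and knockout cells (circles, coloured by the authors' call) on a log axis, in pathway order within each role; each symbol is 1 pooled value per group, so there are no error bars. Levels run from 0.387 FPKM for Nr1h3 to 238 FPKM for Acly in control cells. Abca1, Abcg1, Soat1 and Mylip start between 1.74 and 2.54 FPKM and lie higher in knockout cells.

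Of the SREBP control genes, all 5 had ratios below 0, beside 50.2% of all tested genes, and 1 was called. That share, 20% beside 6.03% lower over all tested genes, rests on 1 gene. Srebf2 (chromosome 15, 82147266 to 82205376, mm10) stood at 52.4% of control, with a log2 ratio of -0.93 and q = 0.0012 in the authors' deposited table. This is the smallest q the table holds, and Fasn, Soat1 and other genes share it. Srebf1, which encodes SREBP1 and mainly serves fatty acid synthesis, stood at 21.1 and 16.8 FPKM (log2 ratio -0.33). Srebf2 thus exceeded Srebf1 3.91 times in control and 2.58 times in knockout cells on the FPKM scale, which is per transcript length. Their escort Scap stood at 16.2 and 11.8 FPKM (log2 ratio -0.44).

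The retention factor Insig1, itself an SREBP target, stood at 9.29 and 5.63 FPKM (log2 ratio -0.68, q = 0.168 in the authors' deposited table). Its paralogue Insig2, at 8.27 and 7.78 FPKM, had a ratio of -0.08, which turns positive when each group is divided by its summed FPKM. Insig1 was the higher of the pair in control cells and the lower in knockout cells, though neither was called and the difference between their ratios was not tested.

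Of the 6 tested genes of uptake, efflux and storage, 2 were called higher and 0 lower, and 4 had an unadjusted Cuffdiff p under 0.05, all higher. Over all tested genes, 6.9% were called higher and 12.7% were higher at that p, so the role's shares, 33.3% and 66.7%, rest on few genes. These 4 genes lay between 1.74 and 2.54 FPKM in control cells. Whether they would have been tested at their control level alone is not known. Soat1 (chromosome 1, 156424525 to 156474331, mm10) rose to 3.47 times its control level (log2 ratio 1.61, q = 0.0012 in the authors' deposited table). Abca1 (chromosome 4, 53030787 to 53159895, mm10) rose to 2.29 times its control level (log2 ratio 1.00, q = 0.0116 in the authors' deposited table). Abcg1, the other cholesterol exporter, stood at 1.995 and 3.85 FPKM (log2 ratio 0.80, q = 0.184 in the authors' deposited table). Mylip, a ubiquitin ligase for lipoprotein receptors, stood at 1.74 and 4.23 FPKM (log2 ratio 1.08, q = 0.112 in the authors' deposited table).

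The LXR genes themselves differed in level. Nr1h2, which encodes LXR beta, stood at 49.6 and 47.3 FPKM, with a ratio of -0.07 that changes sign when each group is divided by its summed FPKM. Nr1h3, which encodes LXR alpha, was listed at 0.387 and 1.199 FPKM and was not tested by the authors. Stard4, which carries cholesterol within the cell and is an SREBP target, stood at 12.4 and 9.06 FPKM (log2 ratio -0.43), on the side of the synthesis genes.

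In fatty acid synthesis, 2 of 8 genes were called lower and 0 higher, and 6 ratios lay below 0. At an unadjusted Cuffdiff p under 0.05 the count was also 2 lower and 0 higher. Over all tested genes, 6.03% were called lower and 13.0% were lower at that p, so the role's share of 25% rests on 2 genes. Fasn (chromosome 11, 120805846 to 120824547, mm10) stood at 47.5% of control (log2 ratio -1.07, q = 0.0012 in the authors' deposited table). Fads2 (chromosome 19, 10064164 to 10101503, mm10) stood at 45.0% of control (log2 ratio -1.12, q = 0.0167 in the authors' deposited table). Acly, which makes cytosolic acetyl-CoA for both routes, had the highest level of all members, 238 and 169 FPKM (log2 ratio -0.49, q = 0.200 in the authors' deposited table). Acaca, the acetyl-CoA carboxylase that feeds Fasn, had a low level, 1.75 and 1.18 FPKM.

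Fads1, the desaturase next to Fads2 on chromosome 19, stood at 20.4 and 14.8 FPKM (log2 ratio -0.45, q = 0.226 in the authors' deposited table). Fads2 exceeded Fads1 1.34 times in control cells and was 0.830 times its level in knockout cells. The stearoyl-CoA desaturases lay apart from these: Scd1 stood at 11.2 and 11.9 FPKM and Scd2 at 44.9 and 49.5 FPKM, with Scd2 4.001 and 4.16 times Scd1. The paralogues Scd1 and Scd2 are similar in sequence, so reads may be split between them. Elovl6, the elongase that acts on the product of Fasn, stood at 56.2 and 48.0 FPKM (log2 ratio -0.22). The calls of this role were thus Fasn and Fads2, and whether their ratios differ from those of Scd1, Scd2 or Elovl6 was not tested.

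Some members lie where neighbouring genes shifted together, so each was set beside the nearest 10 expressed non-member genes on each side (FPKM of 1 or more in either group; up to 20 in all). Around Msmo1 all 20 neighbours had ratios below 0, with a median of -1.05. The adjacent Cpe fell from 42.3 to 12.9 FPKM (q = 0.0012 in the authors' deposited table), and Klhl2 stood at 30.4 and 21.4 FPKM. Around Srebf2, 17 of 20 neighbours lay below 0, with a median of -0.31, less than the -0.93 of Srebf2 itself. There Ccdc134 stood at 6.58 and 4.06 FPKM, and Shisa8 at 10.0 and 3.72 FPKM (q = 0.0502 in the authors' deposited table).

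The other called members had neighbourhoods near 0: 0.05 for Fasn, 0.04 for Fads2, -0.02 for Abca1 and -0.03 for Soat1. Fdft1 on chromosome 14 had neighbours with a median of 1.26, above its own ratio of 0.89. Nsdhl on chromosome X had a median of 0.40 around it, and Sqle, with a ratio of -0.61, lay among genes with a median of 0.37. Hsd17b7, with a ratio of -1.03, lay among genes with a median of -0.38. Leaving out the 6 tested members whose neighbourhood median was beyond 0.3 in either direction left 2 lower calls, Fasn and Fads2, the same 2 higher calls and a median ratio of -0.33.

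**Figure D3:**
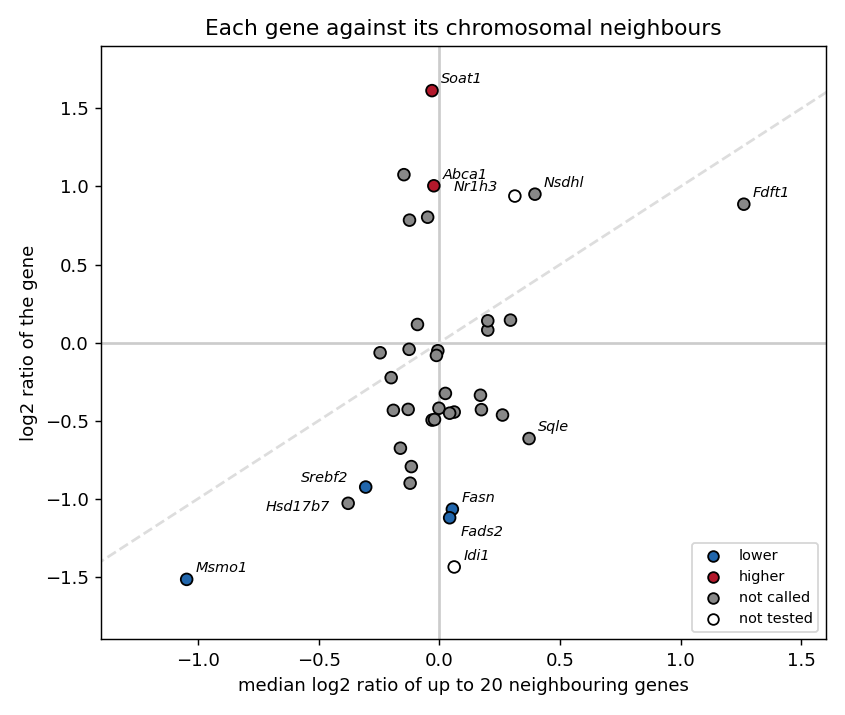
Log2 ratio of each member (vertical axis) against the median log2 ratio of up to 20 neighbouring expressed genes (horizontal axis); each point is 1 gene, coloured by the authors' call, and the dashed line marks equal values. Msmo1 lies far left at -1.05 and Fdft1 far right at 1.26, while Fasn, Fads2, Abca1 and Soat1 lie near 0 on the horizontal axis.

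Other genes of sterol metabolism moved both ways. Of 25 listed, 20 were tested, 4 called lower and 3 higher. These calls were 20% and 15% of the tested genes of the list, beside 6.03% and 6.9% over all tested genes. The median ratio was 0.36. Of the tested genes, 2 uncalled ones with ratios above 0 lay under 1 FPKM in control cells and may have been tested only through their knockout level, so this median supports no direction. Lower calls included Tmem97, a sterol-regulated membrane protein, from 37.6 to 17.4 FPKM (q = 0.0078 in the authors' deposited table), and the ubiquitin ligase Rnf145, from 30.5 to 17.8 FPKM. Higher calls included Npc2, which moves cholesterol out of lysosomes, from 75.7 to 119 FPKM, and Erlin2, an endoplasmic reticulum scaffold, from 7.00 to 19.1 FPKM. The neighbours of Erlin2 had a median of 1.01. The branch from farnesyl diphosphate to prenyl anchors, dolichol and ubiquinone had 1 lower and 2 higher calls of 14 tested (median 0.12). These shares, 7.14% and 14.3%, rest on few genes. Dhdds, which builds dolichol, fell from 28.9 to 12.0 FPKM. The prenyl transferase subunits Fnta (31.3 to 59.5 FPKM) and Rabggta (11.5 to 28.7 FPKM) rose, among neighbours with medians of 0.90 and 1.197.

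The other fatty acid genes were mostly not called: 26 of 31 were tested, with 1 lower, 2 higher and a median of 0.07. These calls were 3.85% and 7.69% of the tested genes of the list, beside 6.03% and 6.9% over all tested genes. Hacd2, a dehydratase of chain elongation, fell from 20.1 to 11.2 FPKM. Mlycd, which degrades the malonyl-CoA used by Fasn, rose from 3.35 to 14.9 FPKM, and Acsl3, which activates fatty acids, from 12.4 to 26.04 FPKM. The neighbours of Acsl3 had a median of 0.49 and those of Mlycd -0.29. Acsl3 also lies under a locus entry of 2 genes. In fatty acid oxidation, 1 of 19 tested genes (5.26%) was called higher, Acadl (2.64 to 8.42 FPKM), and 0 lower. At an unadjusted Cuffdiff p under 0.05, 1 was lower, and the median was -0.03.

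Genes of lipoprotein export and uptake, a role of visceral endoderm, had 6 higher and 1 lower call of 12 tested, and a median of 1.43. These calls were 50% and 8.33% of the tested genes of the list, beside 6.9% higher and 6.03% lower over all tested genes. Cubn, an endocytic receptor, rose from 0.279 to 5.10 FPKM, Mttp, which loads lipid onto lipoproteins, from 0.888 to 6.87 FPKM, and the receptor gene Vldlr from 1.94 to 8.81 FPKM. Lrp1 fell from 16.6 to 9.59 FPKM. Of the 12 tested, 3 lay under 1 FPKM in control cells and may have been tested only through their level in knockout cells. They were Cubn, Mttp and an uncalled gene with the highest ratio of the list, 3.81. The count and median of this list therefore cannot be read as support for a shift. The summed endoderm markers given above were higher in the same cells, though Hnf4a among them was not, and a link to this list was not tested.

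**Figure D4:**
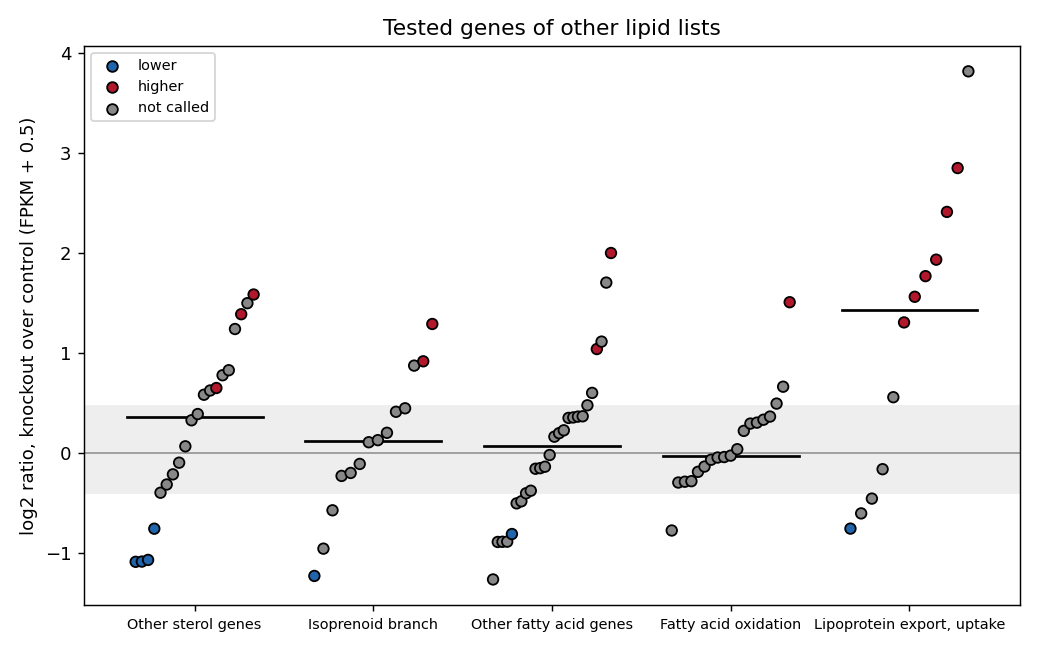
Log2 ratio of knockout over control (FPKM + 0.5) for the tested genes of 5 other lipid lists; each point is 1 gene, coloured by the authors' call, black bars are list medians, and the grey band is the interquartile range of all tested genes. The medians are 0.36 for other sterol genes, 0.12 for the isoprenoid branch, 0.07 for other fatty acid genes, -0.03 for fatty acid oxidation and 1.43 for lipoprotein export and uptake.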

How the data were processed

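The series holds 43 samples: 36 ChIP-seq samples for MTF2, SUZ12 and H3K27me3, 1 input and 6 RNA-seq libraries, grouped by their titles. ChIP-seq was not used here. RNA was total RNA from which oligo-dT beads took mRNA, per the labels' protocols. Per the submitters' processing notes, TopHat2 2.1.0, Cuffdiff, Bowtie 1.0 and deepTools were used, with mm9 and mm10 as builds; what each was for is not stated. The FPKM values were made by the authors, pooled per group, per the file headers; how libraries were scaled to each other is not stated there. The authors' log2 fold change sets knockout over control and adds no pseudocount. The p-value and q-value were deposited by the authors, and the q equals a Benjamini-Hochberg adjustment of the p over 11362 genes to within 5.2e-07. The test statistic is a score deposited by the authors, the log ratio over its estimated error.

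Genes with status NOTEST (11098) or FAIL (2) were left out of tests. Starts were moved to 1-based. Symbols of 21120 genes were found in RefSeq (GRCm38.p6): 99.99% had the same chromosome there and 89.0% a span inside the locus entry, give or take 2 kb, so positions are called mm10. Some entries merge overlapping genes, and 6 members share one. Whether counting used strand is not given, so overlapping genes are uncertain. Ratios used a pseudocount of 0.5; neighbours were 10 expressed genes on each side. Promoters came from RefSeq on GRCm38.p6. Python 3.11.15, pandas 2.3.3 and scipy 1.17.1 were used, and the adjustment and calling were tested on simulated data.

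The members, lists and tests were chosen with earlier results of these data known. All 38 members, Mtf2, up to 3 higher and 3 lower calls per other list, and the nearest neighbours of called members in a shifted neighbourhood are named; some genes that this rule takes are not reported here. The alternatives tried are given with their effect in the closing section.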

Additional observations from a re-analysis of the deposited data

How the results depend on the processing

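No paired analysis was possible because the table holds 1 pooled value per group, and for the same reason no library could be left out. At a q of 0.01, 3 members were called lower and 1 higher, without Fads2 and Abca1; with a 2-fold minimum 3 were lower, without Srebf2, and 2 higher. A normal p from the test statistic called 0 lower and 0 higher members (lowest q 0.203), beside 29 and 95 genes in the table, and gave Mtf2 a q of 0.755 by the same Cuffdiff statistic; Mtf2, with a Cuffdiff q of 0.0496, was also lost at 0.01. Without members in a shifted neighbourhood, 2 were lower and 2 higher. The cause of these losses was not tested, beyond the fewer members left in the last case. Dividing by summed FPKM moved the median of the members from -0.38 to -0.24 and changed the sign of 4 uncalled members, Lss, Tm7sf2, Insig2 and Nr1h2. Subtracting the neighbourhood median, chosen after seeing the data, gave -0.36 and changed the sign of 6 uncalled members. No called member changed sign under these scalings, pseudocounts of 0.1 and 1, or median centring. Recomputed adjustment, an FPKM of 1 or more in both groups and leaving out shared locus entries kept 4 lower and 2 higher calls. Precision is limited by pooled values of unknown depth.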
